A study of Mus musculus with 2 samples.

Results

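The genes that load peptides onto MHC class I molecules were compared between cultured fibroblasts with a normal and with an impaired DNA methyltransferase gene, Dnmt1. They comprised 10 genes, taken by symbol from the deposited table: H2-K1, H2-D1, B2m, Tap1, Tap2, Tapbp, Psmb8, Psmb9, Psmb10 and Nlrc5. These 10 genes held 11 of the 29126 entries of the table, because 2 entries carry the symbol H2-K1. All 11 entries had a status of OK, the label that Cuffdiff gives an entry with enough reads to quantify. Messenger RNA had been sequenced with strand-specific libraries from mouse embryonic fibroblasts (MEFs), with 1 library labelled Dnmt1+/+ and 1 labelled Dnmt1-/-. Dnmt1 encodes the main maintenance DNA methyltransferase, and the cells labelled Dnmt1-/- are homozygous for a hypomorphic allele of it. Cells of both genotypes also lack p53 (homozygous null for trp53). Each genotype is represented by 1 library and the strain is labelled as unknown, so the genotype and any other difference between these cells cannot be told apart.

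MHC class I molecules display peptides from inside the cell to cytotoxic T cells. Their heavy chains, encoded in the H-2 region of the mouse, pair with beta-2-microglobulin. Most of the peptides are made by the proteasome, in which inducible catalytic subunits can take the place of constitutive ones. The TAP transporter carries peptides into the endoplasmic reticulum, where tapasin holds the empty heavy chain beside it. Interferons raise the transcription of nearly the whole pathway, and many cells outside the immune system express its inducible members weakly without them.

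Promoter sequences are shown first, because these genes are known to be transcribed through a small set of shared elements. The windows come from RefSeq (table of GRCm38.p6), where they run from 250 bases before to 50 bases after a start site, and 8 of the 10 genes matched by symbol. Tap2 and Nlrc5 had no entry. Each window was found once, letter for letter, in NCBIM37, the build that mm9 names, and coordinates are given in that build. Capitals mark matches on either strand to 5 motifs. These are the core bound by interferon regulatory factors (AANNGAAA), the gamma-activated site (TTCNNNGAA), the NF-κB consensus, the Y box bound by NF-Y (CCAAT) and the core of the cyclic AMP response element (TGACG). H2-K1 and H2-D1 are shown for their near-identical elements, B2m for the same elements in the partner chain, Tap1 for the promoter it shares with Psmb9, and Psmb8 for the gene with the greatest difference.
H2-K1, chr17:34137243-34137542, minus strand: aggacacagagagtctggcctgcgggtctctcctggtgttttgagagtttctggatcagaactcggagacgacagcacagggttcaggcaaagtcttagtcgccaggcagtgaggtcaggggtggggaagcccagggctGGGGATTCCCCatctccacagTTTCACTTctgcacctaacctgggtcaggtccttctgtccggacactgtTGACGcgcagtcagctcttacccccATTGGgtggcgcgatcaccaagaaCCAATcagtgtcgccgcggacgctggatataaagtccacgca
H2-D1, chr17:35399789-35400088, plus strand: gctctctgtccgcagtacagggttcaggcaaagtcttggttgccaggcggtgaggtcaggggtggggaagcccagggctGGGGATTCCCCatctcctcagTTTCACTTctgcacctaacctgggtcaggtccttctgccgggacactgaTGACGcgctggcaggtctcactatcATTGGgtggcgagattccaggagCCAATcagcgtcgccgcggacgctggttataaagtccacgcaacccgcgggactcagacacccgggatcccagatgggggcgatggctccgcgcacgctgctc
B2m, chr2:121973173-121973472, plus strand: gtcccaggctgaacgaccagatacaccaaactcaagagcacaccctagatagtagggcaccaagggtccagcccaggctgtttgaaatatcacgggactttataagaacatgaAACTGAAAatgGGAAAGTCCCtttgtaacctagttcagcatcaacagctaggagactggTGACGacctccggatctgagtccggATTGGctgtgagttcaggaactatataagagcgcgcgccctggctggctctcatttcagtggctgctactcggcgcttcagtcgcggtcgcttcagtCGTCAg
Tap1, chr17:34324251-34324550, plus strand: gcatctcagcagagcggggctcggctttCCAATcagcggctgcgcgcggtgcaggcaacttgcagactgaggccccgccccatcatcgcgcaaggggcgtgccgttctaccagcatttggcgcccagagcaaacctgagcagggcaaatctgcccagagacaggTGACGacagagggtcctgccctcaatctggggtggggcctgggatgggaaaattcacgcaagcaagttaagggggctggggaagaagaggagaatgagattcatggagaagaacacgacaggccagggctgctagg
Psmb8, chr17:34334890-34335189, plus strand: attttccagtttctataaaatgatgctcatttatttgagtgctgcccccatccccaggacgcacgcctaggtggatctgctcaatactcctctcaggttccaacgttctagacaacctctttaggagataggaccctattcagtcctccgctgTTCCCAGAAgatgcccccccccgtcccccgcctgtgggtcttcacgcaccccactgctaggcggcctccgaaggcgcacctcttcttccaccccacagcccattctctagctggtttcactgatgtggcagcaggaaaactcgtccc

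Read 5′ to 3′, the H2-K1 and H2-D1 windows hold an NF-κB match, an interferon regulatory factor core, a TGACG and 2 Y boxes, in this order. Aligned over 239 bases, the windows were 89.5% identical. Their elements lie at different distances from the annotated starts, since the interferon regulatory factor core begins at position -90 in H2-K1 and at -150 in H2-D1. B2m holds the core at -137, followed by NF-κB, TGACG and Y box matches and by another TGACG past the start site. The NF-κB consensus matches H2-K1 and H2-D1 at 2 overlapping positions each, and no other matches overlap. Of the 8 genes with a window, 3 held the NF-κB consensus, which occurs in 4.51% of the 32851 RefSeq windows. The same 3 genes held the interferon regulatory factor core, found in 23.9% of all windows. A Y box was present in 6 genes, against 37.4% of all windows, and TGACG in 5 genes, against 20.8%. The gamma-activated site was found in Psmb8 alone of the 8 genes and in 8.30% of all windows. Psmb10 held none of the 5 motifs in its window. Tap1 and Psmb9 are transcribed away from each other from start sites 226 bases apart, so their windows share 275 bases and the same Y box and TGACG count for both. The number of CpG dinucleotides in a window was 19 in H2-D1, 17 in Psmb9, 15 in Tap1, 14 in H2-K1 and in B2m, 11 in Psmb8 and in Tapbp, and 3 in Psmb10. The median over all windows was 7, and the middle 50% lay between 3 and 20. A match describes these letters and is not a measured binding site. Only the first window listed for a gene was used. The Gencode annotation starts Psmb8 at 34334666 and Tapbp at 34052844, before their windows, so matches near those starts were not counted.

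**Figure D1:**
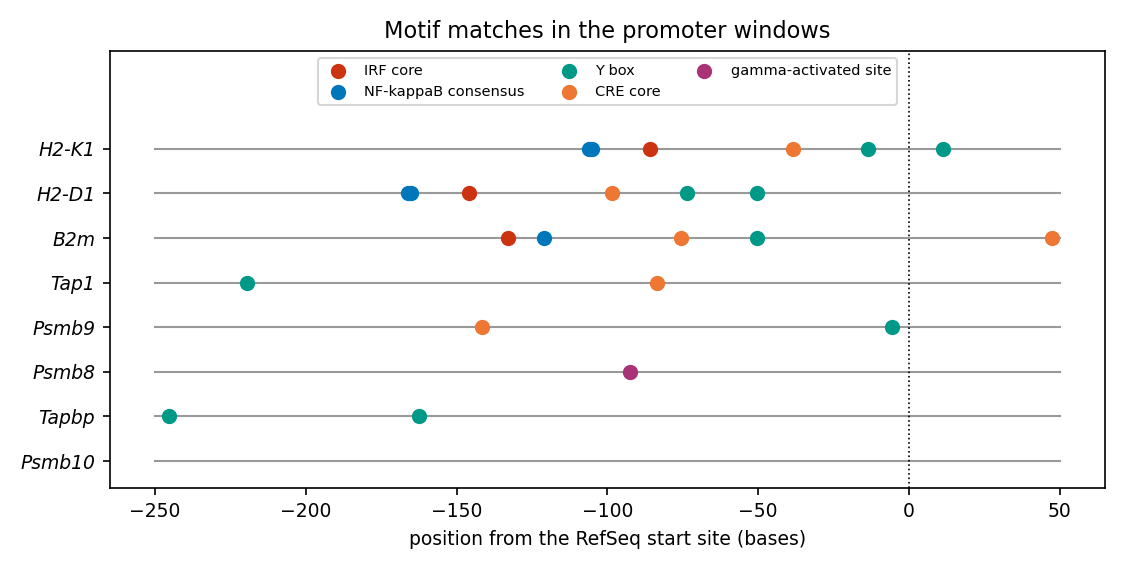
Motif matches in the promoter windows of 8 genes, with the position from the RefSeq start site in bases on the x axis and 1 dot at the middle of each match. The same order of NF-κB, interferon regulatory factor core, TGACG and Y box is seen in H2-K1 and H2-D1, while Psmb10 has no match.

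The values are RPKM, reads scaled for transcript length and for the mapped reads of the library, as the authors deposited them. A difference is that of log2(RPKM + 0.1), Dnmt1-/- minus Dnmt1+/+, a scale that understates the difference of genes at low RPKM. With 1 library per genotype there is no spread between replicates and no p-value, and the table gives no read counts, so no counting interval was computed. A gene is counted as higher or lower when it is past 2-fold on this scale. Counts over all genes use the 11244 entries with status OK, a gene symbol and at least 1 RPKM in one library or the other. The median difference over these was -0.14. Of these entries, 8.47% were past 2-fold higher and 10.9% lower. Dnmt1 itself was at 65.2 RPKM in the Dnmt1+/+ library and 14.5 in the Dnmt1-/- library. The libraries also differed in Xist, at 0.00648 and 37.0 RPKM, and in the Y-linked Ddx3y, at 13.9 RPKM and listed at 0. Of 15 fibroblast markers, 14 were kept, and Col1a1, which encodes a chain of type I collagen, was at 1448 RPKM in the Dnmt1+/+ library and 897.7 in the Dnmt1-/- library. Of these 14 markers, 2 were past 2-fold higher, S100a4 at 289.6 and 1262 RPKM and Pdgfra at 6.95 and 18.7. The 4 past 2-fold lower were Thy1 at 4.84 and 0.129 RPKM, Postn at 176.6 and 13.7, Fn1 at 663.7 and 235.5 and Col1a2 at 1241 and 475.9.

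All 11 entries of the class I presentation genes were higher in Dnmt1-/- than in Dnmt1+/+ MEFs. The difference was widest for Psmb8, an inducible proteasome subunit that was nearly silent in Dnmt1+/+ MEFs and reached 55.1 RPKM in Dnmt1-/- MEFs. It was narrowest for B2m and Psmb10, both of which were already well expressed in Dnmt1+/+ MEFs. Of the 10 entries kept, 8 were past 2-fold higher and 0 past 2-fold lower, where 8.47% of all entries kept were higher and 10.9% lower. In 4 of these 10 entries (Psmb8, Psmb9, Tap1 and the second H2-K1 entry) only the Dnmt1-/- library reached 1 RPKM, so they could not have been kept without a difference. Among the 6 entries with at least 1 RPKM in both libraries, 4 were past 2-fold higher, against 4.62% of all such entries. With no filter on RPKM, 9 of 11 were past 2-fold higher, against 9.92%. At 1.5-fold in place of 2-fold all 10 entries kept were higher, against 14.1% of all entries. The median difference of the 10 entries was 2.98, and that of the 6 with at least 1 RPKM in both libraries was 2.09. Their directions are not independent, because the genes are known to be regulated together and 8 of the 11 entries lie in the H-2 region of chromosome 17. These counts and medians also take H2-K1 by its own 2 entries where both pass. By entry number the second lies among plus-strand entries, while H2-K1 is on the minus strand. Whether it is antisense RNA was not tested.

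**Figure D2:**
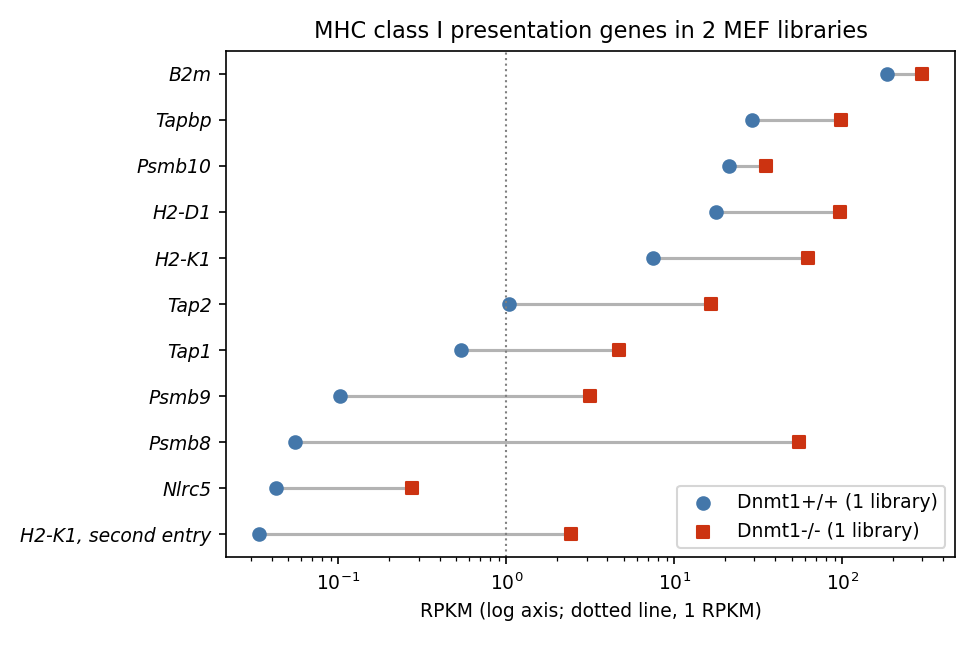
RPKM of each entry in the Dnmt1+/+ library (circles) and the Dnmt1-/- library (squares), on a log axis with a dotted line at 1 RPKM. Every square lies to the right of its circle, from 184.3 and 296.7 RPKM for B2m to 0.0550 and 55.1 RPKM for Psmb8.

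Of the heavy chains, H2-K1 encodes a classical class I molecule and is annotated by Gencode at 34132962 to 34137278 of chromosome 17, minus strand. Its main entry had 7.42 RPKM in Dnmt1+/+ MEFs and 62.2 RPKM in Dnmt1-/- MEFs, which is a log2 difference of 3.05. The second entry had 0.0339 and 2.43 RPKM, a log2 difference of 4.24 that became 1.73 with a pseudocount of 1 RPKM. H2-D1, the other classical heavy chain, is annotated at 35399675 to 35404444, plus strand, and shares its entry with LOC547349. This entry had 17.7 RPKM in the Dnmt1+/+ library, 96.7 in the Dnmt1-/- library and a log2 difference of 2.44. The table gives the H2-K1 entries the same locus as H2-K2 and AA388235, and the H2-D1 entry the same as H2-Q1, although each entry has its own value. Both heavy chains stood higher in the order of all entries kept in Dnmt1-/- MEFs, H2-K1 at the 37.6 percentile of RPKM in Dnmt1+/+ and the 89.6 percentile in Dnmt1-/-, and H2-D1 at 63.1 and 93.8.

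The heavy chains have close paralogs, and their values are uncertain to the extent that reads were shared. Of the 50-base windows of the H2-K1 transcript, 8.87% occur letter for letter in transcripts of other genes, H2-D1 foremost. For H2-D1 the share was 14.3%. It was under 1% for Tap1, Tap2 and Tapbp and 0% for B2m, Psmb8, Psmb9 and Psmb10, and Nlrc5 was not examined. How reads with several matches were assigned is not given in the sources used here. The reference is C57BL/6J, so all reads were mapped to the H-2 alleles of that strain. Without the H2-K1 and H2-D1 entries, 5 of 7 entries kept were past 2-fold higher, against 8.47% of all entries kept. Of these 5, Psmb8, Psmb9 and Tap1 reached 1 RPKM only in the Dnmt1-/- library, so they could not have been kept without a difference.

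B2m, on chromosome 2 from 121973422 to 121978819, encodes beta-2-microglobulin, the light chain that every class I heavy chain needs to reach the surface. It had the highest RPKM of the 11 entries in both libraries, 184.3 in Dnmt1+/+ and 296.7 in Dnmt1-/-, a ratio of 1.61 and a log2 difference of 0.69. In Dnmt1+/+ MEFs the RPKM of B2m was 7.33 times the sum of H2-K1 and H2-D1. In Dnmt1-/- MEFs it was 1.87 times that sum. The mRNA of the light chain was thus above the summed mRNA of these heavy chains in both libraries, by less in Dnmt1-/-. Protein was not measured, and other class I chains are not in this sum.

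Tap1 and Tap2 encode the paired subunits of the peptide transporter, with Psmb8 between their genes, all on the plus strand of chromosome 17. Tap1 had 0.537 RPKM in the Dnmt1+/+ library, 4.71 in the Dnmt1-/- library and a log2 difference of 2.92. Tap2 had 1.04 RPKM in the Dnmt1+/+ library, 16.4 in the Dnmt1-/- library and a log2 difference of 3.85. Tap1 was therefore below Tap2 in both libraries, with 0.514 times its RPKM in Dnmt1+/+ and 0.287 times in Dnmt1-/-. Tapbp encodes tapasin, which bridges the transporter and the heavy chain. It had 29.2 RPKM in the Dnmt1+/+ library, 97.6 in the Dnmt1-/- library and a log2 difference of 1.74. Tapasin was thus well expressed in Dnmt1+/+ MEFs, while neither transporter gene was above 1.04 RPKM there.

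The inducible proteasome subunits differed among themselves. Psmb8, which replaces Psmb5 in the immunoproteasome, was at 0.0550 RPKM in Dnmt1+/+ and 55.1 in Dnmt1-/- MEFs. Its log2 difference was 8.48, higher than that of 99.9% of all entries kept, and became 5.73 with a pseudocount of 1 RPKM. Psmb9, which replaces Psmb6, had 0.102 RPKM in the Dnmt1+/+ library, 3.14 in the Dnmt1-/- library and a log2 difference of 4.01. Psmb10, which replaces Psmb7 and lies apart from the others on chromosome 8, was at 21.1 RPKM in Dnmt1+/+ and 35.2 in Dnmt1-/-. Its log2 difference of 0.73 stayed within 2-fold. In Dnmt1-/- MEFs Psmb8 was thus the highest and Psmb9 the lowest of these subunits, although their genes stand on either side of Tap1 in one cluster.

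The constitutive subunits stayed within 2-fold. Psmb5 was at 115.7 RPKM in Dnmt1+/+ and 101.1 in Dnmt1-/-, Psmb6 at 105.1 and 89.9, and Psmb7 at 169.1 and 125.6. The RPKM of Psmb8 was 0.000475 times that of Psmb5 in Dnmt1+/+ and 0.545 times in Dnmt1-/-. For Psmb9 and Psmb6 the ratios were 0.000966 and 0.0349, and for Psmb10 and Psmb7 they were 0.125 and 0.280. Of these pairs, Psmb8 alone came within 2-fold of its constitutive counterpart, in Dnmt1-/- MEFs.

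**Figure D3:**
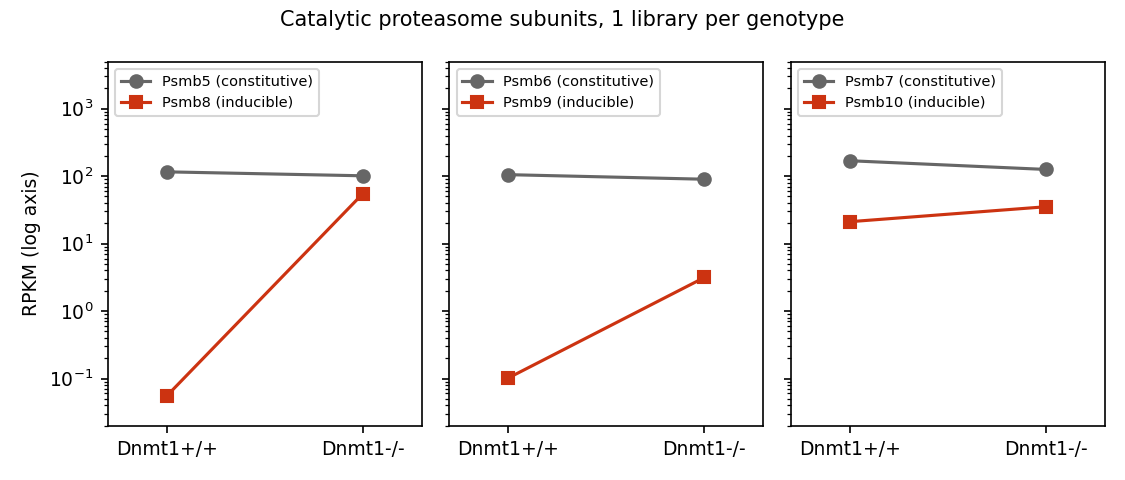
RPKM of each inducible catalytic subunit (squares) and the constitutive subunit it replaces (circles) in the Dnmt1+/+ and Dnmt1-/- libraries, on a log axis shared by the panels. Psmb8 reaches 55.1 RPKM beside 101.1 for Psmb5, while Psmb9 stays at 3.14 RPKM beside 89.9 for Psmb6.

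Nlrc5 encodes a transactivator of class I genes, which acts through promoter elements that include the Y box. It lies on chromosome 8 from 96996663 to 97051172, where the annotation used types it as a lincRNA. It was at 0.0423 RPKM in Dnmt1+/+ and 0.275 in Dnmt1-/- MEFs, below the minimum of 1 in both. Its log2 difference was 1.40, and it depended on the pseudocount, being 0.29 with a pseudocount of 1 RPKM and 2.45 with 0.01. The transactivator was thus barely detected in either library, in which H2-K1 had 7.42 and 62.2 RPKM. Among the genes near 0 in Dnmt1+/+, the pseudocount also set the size for Psmb8, Psmb9 and Tap1. With a pseudocount of 1 RPKM their log2 differences were 5.73, 1.91 and 1.90.

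The 7 entries of Tapbp, H2-K1, Psmb9, Tap1, Psmb8 and Tap2 on chromosome 17 lie within 296.9 kb. All 7 were past 2-fold higher, against 8.47% of all entries kept. The same stretch holds 10 other entries kept, and 0 of them were past 2-fold in either direction. Among all entries kept, 8.47% were higher and 10.9% lower, so few of 10 would be past 2-fold in any case. The 10 include Rps18, a ribosomal protein gene at 1658 RPKM in Dnmt1+/+ MEFs and at 1603 in Dnmt1-/-, and Brd2, a bromodomain gene at 46.7 and 54.5. The log2 differences of these 10 ran from -0.52 for Rxrb to 0.47 for Wdr46. Rgl2, next to Tapbp, was at 5.90 RPKM in Dnmt1+/+ and 4.94 in Dnmt1-/-. Among the entries kept in this stretch, only those of presentation genes were past 2-fold. Of these, Psmb8, Psmb9, Tap1 and the second H2-K1 entry reached 1 RPKM only in the Dnmt1-/- library. They could not have been kept without a difference, and the ends of the stretch were set by members. Under 1 RPKM in both libraries, 3 other entries were past 2-fold. H2-K2 was at 0.211 RPKM in Dnmt1+/+ MEFs and at 0.979 in Dnmt1-/-, and H2-DMb1 at 0.0621 and 0.360, while AA388235 was in the other direction, at 0.866 and 0.360 RPKM. Members elsewhere had neighbours of several kinds. These were taken outside the deposited locus of each member, so entries within it, such as H2-Q1 in that of H2-D1, were left out. For B2m this locus, 121945844 to 122011925, is wider than the gene. Among the 2 nearest entries kept on each side of B2m, log2 differences ran from -2.18 for Sord to -0.68 for Spg11, and around Psmb10 from -0.80 for Edc4 to 0.26 for Slc12a4. Around Nlrc5 they ran from -1.11 for Herpud1 to 0.43 for Cpne2. H2-D1 had Nfkbil1 and Ddx39b on one side, with log2 differences of 0.24 and 0.19, and on the other H2-Gs10 and H2-Q8, both class I-like and past 2-fold higher, at 3.26 and 2.09.

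**Figure D4:**
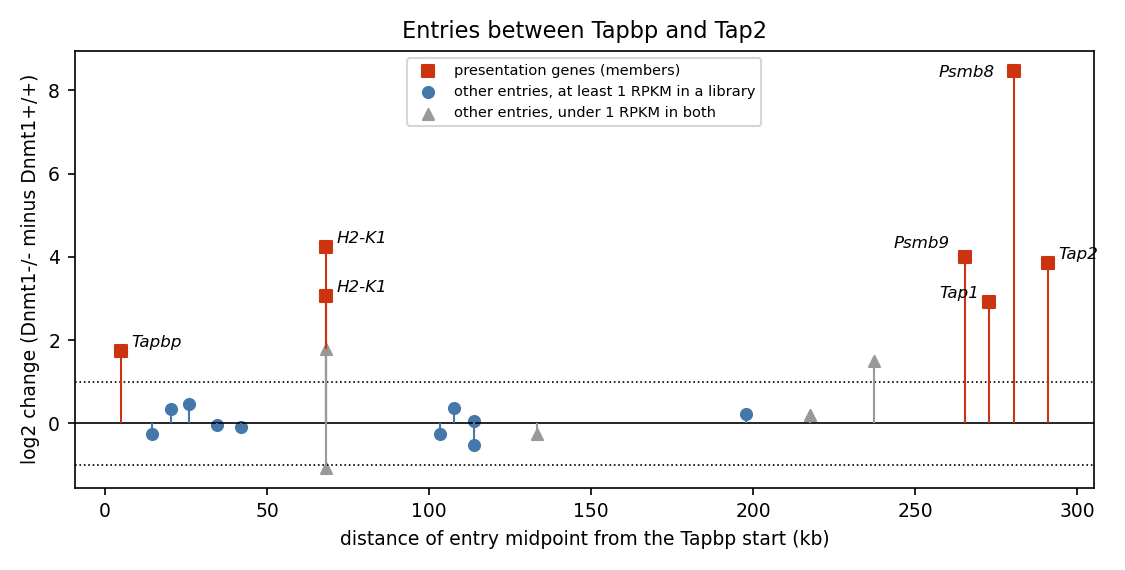
Log2 difference (Dnmt1-/- minus Dnmt1+/+) of each named entry between Tapbp and Tap2, against the distance of the midpoint of its deposited locus from the Tapbp start in kb, with dotted lines at 2-fold. The 7 entries that carry symbols of presentation genes (squares) lie above the upper line. The 10 other entries with at least 1 RPKM in a library (circles) lie between -0.52 and 0.47.

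Among the other class I and class I-like chains, which include the non-classical H2-Q, H2-T and H2-M genes, 38 of 44 listed genes were found and 14 entries were kept. Of these 14 entries, 8 were past 2-fold higher and 0 lower, against 8.47% and 10.9% of all entries kept. Their median difference was 1.33. The joint entry of Raet1a to Raet1e, ligands of the NKG2D receptor of natural killer cells, was at 0.990 RPKM in Dnmt1+/+ and 12.3 in Dnmt1-/-. Mr1, which presents vitamin metabolites to MAIT cells, was at 0.389 and 2.79 RPKM. H2-Q8 was at 0.650 and 3.09 RPKM, and H2-Q1 at 0.312 and 1.62. Of the 14 entries, 7 had at least 1 RPKM in both libraries. Of these 7, 2 were past 2-fold higher, against 4.62% of all such entries. Not all class I genes were higher, as H2-T23, which encodes the ligand of the NKG2A receptor, was at 4.88 RPKM in Dnmt1+/+ and 3.04 in Dnmt1-/-.

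The general machinery of peptide trimming and folding did not share this pattern. All 19 of its listed genes were kept and 0 were past 2-fold in either direction. Among all entries kept, 8.47% were higher and 10.9% lower. The median difference of the 19 was -0.19. Erap1, the aminopeptidase that trims peptides in the endoplasmic reticulum, was at 4.15 RPKM in Dnmt1+/+ and 6.14 in Dnmt1-/-. Among the chaperones of the loading complex, Calr was at 1458 and 980.4 RPKM, Canx at 251.6 and 234.8, and Pdia3 at 374.3 and 270.2. Among 8 entries kept for proteasome counterparts, activators and assembly, 1 was past 2-fold higher, against 8.47% of all entries kept. The entry past 2-fold was Psme2, a subunit of the interferon-inducible PA28 activator, at 18.6 RPKM in Dnmt1+/+ and 40.7 in Dnmt1-/-. Its partner Psme1 was at 39.4 and 65.7 RPKM.

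Of 19 entries kept for transcription factors of class I genes, 3 were past 2-fold higher and 2 lower. Among all entries kept, 8.47% were higher and 10.9% lower, so the number lower was near that share. Irf7, an amplifier of the interferon response, was at 0.168 RPKM in Dnmt1+/+ and 4.50 in Dnmt1-/-. Irf9, a DNA-binding factor of the interferon response, was at 5.04 and 15.6 RPKM. Irf1, a direct activator of class I promoters, was at 12.9 and 21.3 RPKM, within 2-fold. Of the RFX complex, with which Nlrc5 acts at class I promoters, Rfx5 was at 4.26 and 3.45 RPKM, and Rfxank, at 4.36 and 1.55 RPKM, was past 2-fold lower. The other gene past 2-fold lower was Creb1, at 7.91 and 3.57 RPKM. Ciita, the transactivator of class II genes, was at 0.00305 and 0.00271 RPKM.

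None of the 9 entries kept for interferon receptors and signalling was past 2-fold in either direction, and their median difference was -0.02. With 8.47% of all entries kept higher and 10.9% lower, few of 9 would be past 2-fold in any case. This list holds receptors, Janus kinases, Socs genes and interferon genes, while Irf9, past 2-fold higher, was counted above among the transcription factors. Of the 11 genes listed, 10 were found. Ifnb1, which encodes interferon beta, had no entry and so was not examined. Ifng, which encodes interferon gamma, was listed at 0 in both libraries. Among genes that interferons induce, 14 of 21 entries were kept, and their median difference was 3.30. Of these 14 entries, 12 were past 2-fold higher and 0 lower, against 8.47% and 10.9% of all entries kept. Isg15, a ubiquitin-like modifier, was at 2.56 RPKM in Dnmt1+/+ MEFs and at 62.5 in Dnmt1-/-, and Usp18, which removes it from proteins, at 0.221 and 7.49. Of the 6 interferon-induced entries with at least 1 RPKM in both libraries, 4 were past 2-fold higher, against 4.62% of all such entries. No list was tested, since there are 2 libraries.

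**Figure D5:**
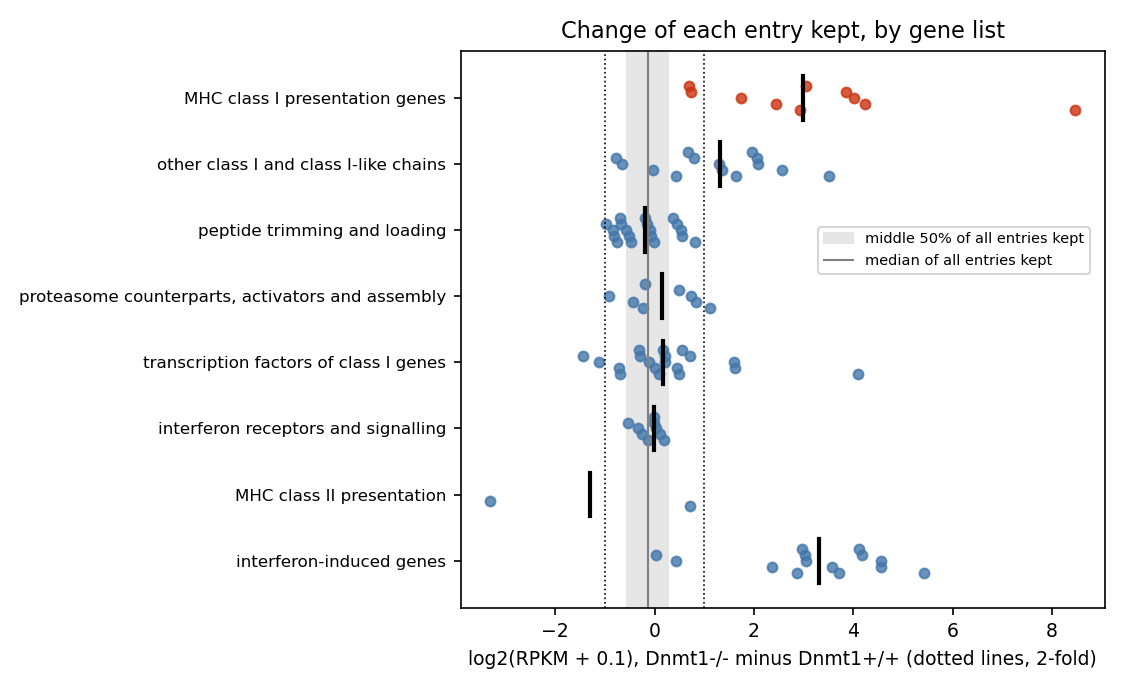
Log2 difference of each entry kept (dots) in 8 gene lists, with the list median (black bar), the median of all 11244 entries kept (grey line) and their middle 50% (grey band), and dotted lines at 2-fold. The presentation genes lie between 0.69 and 8.48 and the interferon-induced genes have a median of 3.30, while peptide trimming and loading lies around -0.19.

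Since blood cells express class I genes and immunoproteasome subunits strongly, markers of other cell types were examined in the same libraries. In bulk RNA, more cells of a type and more RNA per cell cannot be told apart. Of 14 markers of blood and immune cells, 6 were listed at 0 in both libraries, including Ptprc (CD45), Emr1, Laptm5 and Tyrobp. The summed RPKM of the 14 was 2.38 in Dnmt1+/+ and 13.1 in Dnmt1-/-. Most of the latter came from Csf1r, at 0.0702 and 6.08 RPKM, Cd68, at 0.596 and 3.63, and Cd14, at 1.51 and 3.23. The summed RPKM of 7 endothelial markers was 0.541 and 0.713, and that of the epithelial markers was 0.363 and 2.19. The part of these cell types in the values of the presentation genes was not tested.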

How the data were processed

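Strand-specific mRNA-seq libraries of Dnmt1+/+ and Dnmt1-/- MEFs, 1 each, were sequenced single-end. Reads were mapped to mm9 by the authors (TopHat), and transcript assembly (Cufflinks) and quantification (Cuffdiff) followed, with versions not given in the sources used here. They deposited an RPKM value per entry and library, with a status. Whether Cuffdiff scaled the libraries further, or used strand for genes that overlap in the Gencode annotation, such as Tap1 and Psmb9, is not given either.

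Differences were taken as log2(RPKM + 0.1), Dnmt1-/- minus Dnmt1+/+. An entry counted as kept if it had a symbol, a status of OK and 1 RPKM or more in either library. Deposited locus starts count from 0 and were raised by 1. The calculation was tested on simulated data. The wt and ko columns were matched to the genotypes as the paper defines these words. The table gives no counts or depth.

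The genes and lists were chosen with earlier results of these data known. The motifs, the stretch on chromosome 17, neighbouring entries and transcript windows were chosen after the table had been opened. Named genes are all 10 members, up to 4 with the greatest rise or fall past 2-fold per list, and set partners of members; Xist, Ddx3y, H2-T23, Ifng, H2-Aa, H2-Ab1, Ifi30, the genes of the stretch, the neighbours and the marker genes were chosen after their values were seen. For 1 listed gene, no values are reported here. Python 3.11.15 with pandas 2.3.3, numpy 2.4.6 and matplotlib 3.10.9 was used.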

Additional observations from a re-analysis of the deposited data

How the results depend on the processing

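The members' directions were the same under every alternative computed, but none of these could have reversed them. A pseudocount or a filter cannot change the sign of a difference, and the median subtracted was negative. Each member kept stayed on its side of 2-fold under other pseudocounts and subtraction of the median. Filters leave a member's difference unchanged. The log2 difference of Psmb8 ranged from 5.73 to 9.73, and that of B2m from 0.68 to 0.83. The members' median was 1.90 with a pseudocount of 1 RPKM. Requiring at least 1 RPKM in both libraries, an alternative added after seeing the data, gave a members' median of 2.09. It left 4 of 6 members, 2 of 7 other class I chains and 4 of 6 interferon-induced entries past 2-fold higher. Among all such entries 4.62% were higher. Of class II genes, 0 of 1 was lower. Without the H2-K1 and H2-D1 entries, also added, 5 members were higher, against 8.47% of all entries kept. With no filter on RPKM, 1 of 22 other class I chains was lower and 2 of 5 class II genes were higher, against 9.92% higher among all such entries. At 1.5-fold, 2 of 14 other class I chains were lower. Of 19 trimming and loading genes, 1 was higher and 6 were lower, and of 8 proteasome genes, 3 were higher and 1 lower. Of 19 transcription factors, 4 were lower, and of 2 class II genes, 1 was higher. Among all entries kept, 14.1% were past 1.5-fold higher, and the share lower was not computed for this limit, for no filter or for 1 RPKM in both libraries. Of the transcription factors, 1 was past 2-fold lower with a pseudocount of 1 RPKM and 1 with the median subtracted. The filters, the 1.5-fold limit and leaving out the H2-K1 and H2-D1 entries count other entries by construction. The other shifts follow from the arithmetic too, since a larger pseudocount makes every difference smaller and subtracting a negative median raises each one. Of the 2 transcription factors lower, Creb1 had the log2 difference nearer the 2-fold limit, -1.13, against -1.43 for Rfxank. No paired analysis was possible because there is 1 library per genotype. The table gives no counts and no counting error was computed, which limits most the levels far below 1 RPKM.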

Other observations

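The genes of the MHC class II chains, which present peptides from outside the cell or aid their loading, were under 1 RPKM in both libraries. Of 13 entries found for class II presentation, 2 were kept and 5 were listed at 0 in both libraries, H2-Aa and H2-Ab1 among them. Cd74, the invariant chain, was at 9.92 RPKM in Dnmt1+/+ and 0.908 in Dnmt1-/- MEFs in an entry shared with Mir5107, and was past 2-fold lower. Ifi30, a thiol reductase of endosomes, was at 17.1 and 28.2 RPKM, within 2-fold. Under the minimum of 1 RPKM, H2-DMb1, which lies between Brd2 and Psmb9, was at 0.0621 and 0.360 RPKM, and its neighbour H2-DMa at 0.626 and 0.734.

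The second entry with the symbol H2-K1 covers the same locus as the main one, and was at 0.0339 RPKM in Dnmt1+/+ and 2.43 in Dnmt1-/- MEFs, or 0.00456 and 0.0391 times the main entry. H2-K1 is annotated on the minus strand, as were all 38 named chromosome 17 entries with a known strand within 20 entry numbers of the main entry. Around the second entry all 39 such entries were on the plus strand. The table does not give the strand of an entry, and whether the second entry is antisense RNA was not tested. Next to H2-D1 on the side of the H2-Q genes, the entry of H2-Gs10, chosen after its values were seen, was at 0.599 and 6.61 RPKM.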
